A study of Homo sapiens with 9 samples.

Results

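This account follows 10 genes of neuropeptide signalling through the Ewing sarcoma cell line TC-32: the peptide precursors NPY, CCK, GAL and PENK, the receptors NPY1R and NPY5R, the peptidase DPP4, and the granins SCG2, CHGA and CHGB. They were chosen by gene symbol from the 58381 genes of the deposited tables, and all 10 were found. Gene expression had been measured by RNA-seq in 9 libraries to ask which genes respond to the transcription factor ETS1 in cells that still hold the fusion oncoprotein EWSR1::FLI1. The RFP group (3 libraries) carried the pLOC lentiviral vector with a red fluorescent protein. The ETS1-Low and ETS1-High groups (3 libraries each) carried a synthetic human ETS1 cDNA in pLOC, at a lower level and at a level like that of fusion-depleted cells, respectively. All 9 libraries derive from this single line, and the transduced cells were selected with puromycin and sorted as single cells. ETS1-Low and ETS1-High are described as single-cell clones, but how many clones stand behind each group, and whether the RFP cells were a clone, is not stated, so clonal differences and ETS1 cannot be told apart. Nothing says that the 3 libraries of a group came from separate cultures, so p-values measure the spread between these libraries, which may be technical.

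Neuropeptides are cut from longer precursors in secretory granules, the dense-core vesicles, and act on receptors coupled to G proteins. Neuropeptide Y is the main peptide partner of noradrenaline in sympathetic nerves, and Ewing sarcoma cells are known to make it together with its Y1 and Y5 receptors. The surface peptidase DPP4 removes the first residues of neuropeptide Y, which ends its action on the Y1 receptor and leaves a form that acts on the Y2 and Y5 receptors. Cholecystokinin (CCK) is another known Ewing sarcoma product. Granins are acidic proteins that pack and accompany peptides in the granules.

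The totals of expected counts per library, the estimated read counts of the program RSEM, ran from 39484704 to 46654734. Levels are given as CPM (counts scaled to library size) after TMM scaling, as mean ± SD over 3 libraries. ETS1 itself was at 2.00 ± 0.17 CPM in RFP, 10.6 ± 0.30 in ETS1-Low and 19.1 ± 0.81 in ETS1-High, in the order of the labels; these counts do not separate the cell's own ETS1 from the introduced cDNA. Markers of Ewing sarcoma were present: in each group at least 8 of 9 reached a mean of 1 FPKM (fragments scaled to gene length and library size). Of 4 leukocyte, 3 endothelial, 3 epithelial and 3 skeletal muscle markers, 0 in RFP and at most 1 per list in the ETS1 groups reached 1 FPKM. Summed over 6 neuroendocrine markers, the level moved with the groups, from between 834.6 and 859.1 CPM in RFP to between 562.0 and 568.0 in ETS1-Low and between 400.5 and 406.3 in ETS1-High. INSM1 was near the detection limit throughout, with 3, 4 and 2 counts in RFP, 0, 1 and 0 in ETS1-Low and 0 in each ETS1-High library. Summed over 6 sympathetic neuroblast markers it moved the other way, from at most 43.3 CPM in RFP to at least 112.4 in ETS1-Low and 218.1 in ETS1-High, of which HAND2 made up most, with TH listed at 0 in every group. Over 6 fibroblast markers it ran from at most 303.3 CPM in RFP to at least 388.4 and 515.5, but the members differed: COL3A1 went from 35.3 FPKM in RFP to 63.3 and 84.5, PDGFRB from 20.6 to 4.68 and 5.81, and COL1A1 from 9.49 to 6.38 and 10.5. The part of these shifts in the results below was not tested.

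Of the 10 genes, 8 held enough counts to be tested, and CHGA and CHGB did not. In ETS1-High against RFP, GAL, PENK and SCG2 rose, NPY1R, NPY5R, DPP4 and CCK fell, and NPY did not pass. The 3 higher and 4 lower compare with 37.0% and 37.2% of all 17235 genes tested, and the 7 of 8 called with 74.2%, so the count is close to the background. In ETS1-Low against RFP all 8 were called, 2 higher (GAL, SCG2) and 6 lower, where 74.1% of all tested genes were called, 37.9% higher and 36.2% lower. In ETS1-High against ETS1-Low 6 were higher, 0 lower, and CCK and DPP4 did not pass, where 29.9% and 29.3% of all tested genes were called higher and lower, 59.2% in all. The genes called higher there were GAL, PENK, SCG2, NPY, NPY1R and NPY5R. Calls of at least 2-fold numbered 6, 5 and 5 in these comparisons, against 21.0%, 20.6% and 9.74% of all tested genes. Calls were made at an adjusted p of 0.05 in edgeR's quasi-likelihood test with Benjamini-Hochberg adjustment over all tested genes, and every adjusted p below comes from that test. The median log2 fold change of the 8 genes was -0.32, -1.33 and 1.30, beside -0.01, 0.01 and 0.00 over all tested genes. The first and second comparisons share the RFP libraries, and the third shares its libraries with both, so their values are not independent.

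**Figure D1:**
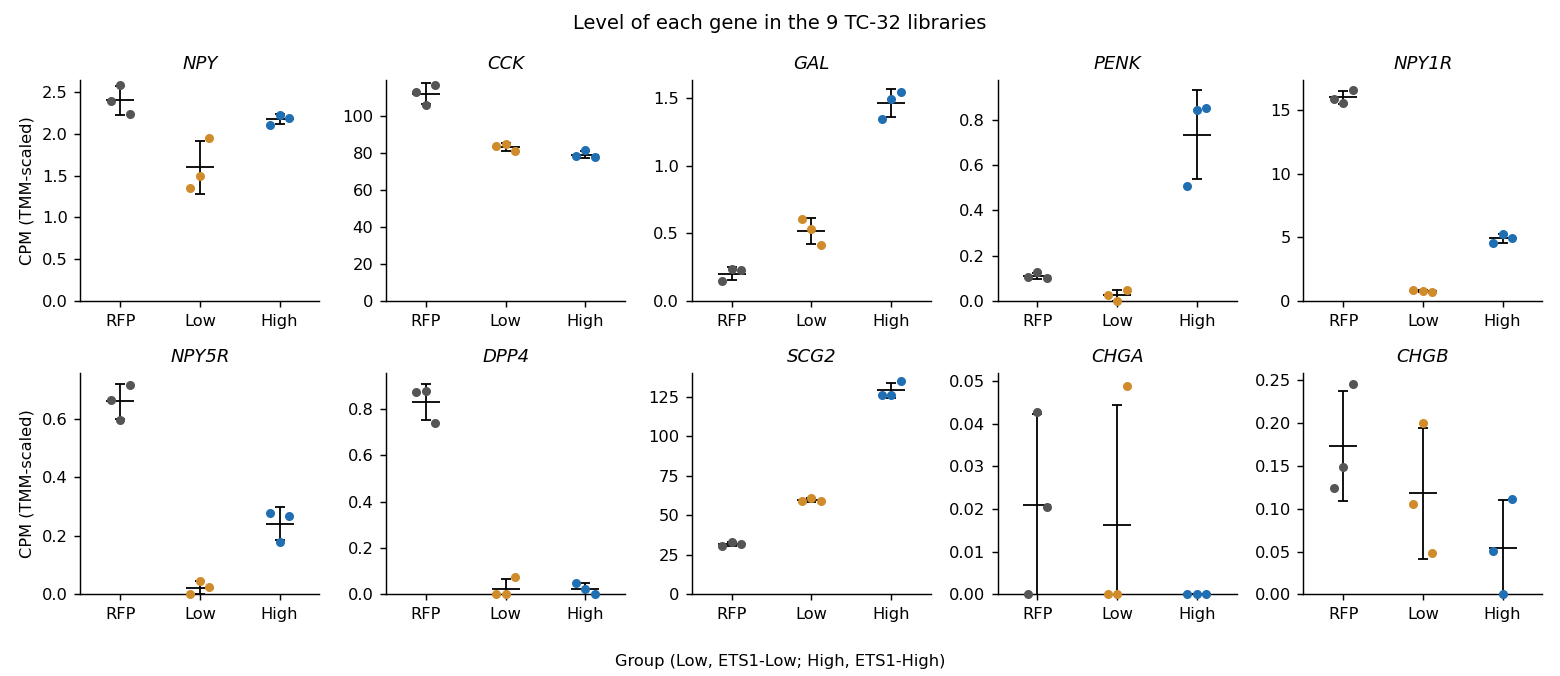
Level of each of the 10 genes (vertical axis, CPM after TMM scaling, linear, own scale per panel) in RFP, ETS1-Low (Low) and ETS1-High (High); points are the 3 libraries of a group, lines the mean and bars the SD, cut off at 0. SCG2 and GAL climb from RFP to ETS1-Low to ETS1-High, NPY1R and NPY5R are lowest in ETS1-Low, DPP4 is near 0 in both ETS1 groups, and CHGA and CHGB stay at no more than 12 counts per library.

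Of the 4 precursors NPY, CCK, GAL and PENK, CCK had the highest level per length in every group. CCK (ENSG00000187094.11; chromosome 3, 42257825 to 42266185, minus strand) encodes the precursor of cholecystokinin, a peptide of gut and brain. Per length it stood at 179 FPKM in RFP, the 465th highest mean of all tested genes, and at 118 and 116 FPKM in ETS1-Low and ETS1-High. The RFP libraries held 113, 106 and 117 CPM, the ETS1-Low libraries 84.2, 85.3 and 81.0 CPM, and the ETS1-High libraries 78.6, 81.6 and 77.8 CPM. Every RFP library was above every ETS1 library, while the ETS1 groups overlapped. The log2 fold change was -0.50 in ETS1-High (SE 0.03; adjusted p 2.2e-18) and -0.43 in ETS1-Low (SE 0.03; adjusted p 6.7e-16) against RFP, a moderate fall of similar size. Between the ETS1 groups it was -0.07 (SE 0.04; adjusted p 0.0678), which did not pass, although upper-quartile scaling (adjusted p 0.0346) and leaving out RFP replicate 2, ETS1-Low replicate 3 or ETS1-High replicate 2 (adjusted p 0.0499, 0.0435 and 0.0433) placed it past the threshold. Annotated transcripts on the other strand overlap CCK and also PENK, so the same doubt about strand as for the receptors below applies. The tested neighbours of CCK within 10 Mb had medians of -0.01 in both comparisons with RFP.

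NPY fell in ETS1-Low and was not called in ETS1-High. NPY (ENSG00000122585.7; chromosome 7, 24284188 to 24291862, plus strand) encodes neuropeptide Y, and its mean of 6.28 FPKM in RFP placed it above 47.6% of tested genes, far below CCK per length. It was at 2.39, 2.58 and 2.23 CPM in RFP, at 1.35, 1.49 and 1.95 CPM in ETS1-Low and at 2.11, 2.22 and 2.19 CPM in ETS1-High. ETS1-Low was thus the low group, and ETS1-High lay just under RFP with no overlap. NPY fell in ETS1-Low against RFP by 0.59 on the log2 scale (SE 0.16; adjusted p 0.000795). ETS1-High and RFP did not differ at the threshold (log2 fold change -0.14, SE 0.15; adjusted p 0.396). The ETS1 groups differed by 0.44, with ETS1-High above (SE 0.16; adjusted p 0.0149), but the call was lost without ETS1-Low replicate 1 (adjusted p 0.0936) or replicate 2 (adjusted p 0.0658). The neighbours of NPY had medians of -0.12, -0.16 and 0.10 in the 3 comparisons.

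GAL and PENK were both low and both highest in ETS1-High. GAL (ENSG00000069482.6; chromosome 11, 68683779 to 68691175, plus strand) encodes galanin, a peptide of sympathetic and sensory neurons. Its counts were 7, 11 and 11 in RFP, 23, 24 and 17 in ETS1-Low and 53, 67 and 69 in ETS1-High, an order without overlap. GAL rose by 1.35 in ETS1-Low (SE 0.33; adjusted p 0.000316) and by 2.84 in ETS1-High (SE 0.28; adjusted p 1.02e-12) on the log2 scale against RFP, and by 1.49 between the ETS1 groups (SE 0.25; adjusted p 9.71e-07). Its 337 tested neighbours also had median log2 fold changes above 0 against RFP (0.42 for ETS1-Low, 0.37 for ETS1-High), and their part in the rise was not tested.

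PENK (ENSG00000181195.10; chromosome 8, 56436674 to 56446671, minus strand) encodes proenkephalin, the source of the enkephalin opioid peptides. It had 5, 6 and 5 counts in RFP, 1, 0 and 2 in ETS1-Low and 20, 38 and 38 in ETS1-High. ETS1-High stood apart from both other groups, with a log2 fold change of 2.7 against RFP (SE 0.40; adjusted p 5.25e-08). Against ETS1-Low the difference also passed (adjusted p 1.83e-10), and over the summed counts of each group, 96 against 3, the ratio was 30.7 (95% counting interval 10.2 to 151). PENK was called lower in ETS1-Low than in RFP (adjusted p 0.0157), from 16 summed counts to 3, a ratio of 4.59 (1.31 to 24.6). That call was lost without ETS1-Low replicate 2 (adjusted p 0.10). The 46 tested neighbours of PENK had medians of -0.17, 0.02 and -0.21 for ETS1-High and ETS1-Low against RFP and between the ETS1 groups. Counting intervals are exact and cover counting error only, since reads from PCR-amplified libraries without molecular identifiers are not independent molecules.

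The receptor genes NPY1R and NPY5R moved together. They lie head to head on chromosome 4, and both fell in the ETS1 groups, further in ETS1-Low than in ETS1-High. NPY1R (ENSG00000164128.6; 163323962 to 163344832, minus strand) encodes the Y1 receptor and NPY5R (ENSG00000164129.11; 163343892 to 163351934, plus strand) the Y5 receptor. The annotated genes overlap by 941 bases on opposite strands. The library kit keeps strand, but whether counting used it is not given in the sources used here, so reads from the shared stretch cannot be assigned with certainty. Counts were whole numbers for both genes in all 9 libraries.

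NPY1R was at 15.9, 15.6 and 16.6 CPM in RFP, at 0.85, 0.76 and 0.71 CPM in ETS1-Low and at 4.57, 5.29 and 4.93 CPM in ETS1-High. The 3 groups did not overlap, and the order RFP, ETS1-High, ETS1-Low is not that of the ETS1 level. Against RFP, the log2 fold change of NPY1R was -4.38 in ETS1-Low (SE 0.11; adjusted p 1.06e-36) and -1.70 in ETS1-High (SE 0.08; adjusted p 2.94e-25). ETS1-High exceeded ETS1-Low by 2.68 (SE 0.13; adjusted p 5.36e-24). In this bulk RNA, fewer cells with the transcript and less transcript per cell cannot be told apart. NPY1R went from above 48.1% of tested genes per length in RFP to above 12.6% in ETS1-Low.

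NPY5R followed the same order at a lower level. It had 32, 28 and 35 counts in RFP, 0, 2 and 1 in ETS1-Low and 11, 8 and 12 in ETS1-High, again without overlap. The fall in ETS1-Low passed (adjusted p 1.48e-10), with a ratio of RFP to ETS1-Low of 27.3 over 95 and 3 summed counts (95% counting interval 9.05 to 134). In ETS1-High NPY5R fell by 1.44 on the log2 scale against RFP (SE 0.35; adjusted p 0.000249). Between the ETS1 groups NPY5R differed too (adjusted p 5.01e-05), ETS1-High exceeding ETS1-Low by a ratio of 9.91 (3.09 to 50.7). The 53 tested neighbours of the pair went the other way, their median log2 fold change being 0.62 for ETS1-High, 0.58 for ETS1-Low and 0.15 between the ETS1 groups.

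Both receptor genes fell together, while NPY fell less against RFP (log2 fold change -0.59 in ETS1-Low, and -0.14, not called, in ETS1-High). The stretches before the receptors' start sites are therefore shown beside that of NPY. The sequences are from RefSeq on GRCh38.p14 and leave out bases annotated as untranslated exon. Those of NPY1R and NPY5R end at the base before the RefSeq start. That of NPY stops at 24284187, just short of that base at 24284189, since the last bases are annotated as untranslated exon. RefSeq promoter entries were found for 6 of the 10 genes. The start sites of NPY1R and NPY5R used here lie 11296 bases apart. The annotated NPY1R gene reaches further, to 163344832, so the NPY1R stretch shown lies inside that gene, before an internal start. Capitals mark GGAA on either strand (TTCC on the strand shown), the core letters that ETS factors bind, and the E-box letters CACGTG, which read the same on both strands.
NPY1R (chr4:163332597-163332795, minus strand): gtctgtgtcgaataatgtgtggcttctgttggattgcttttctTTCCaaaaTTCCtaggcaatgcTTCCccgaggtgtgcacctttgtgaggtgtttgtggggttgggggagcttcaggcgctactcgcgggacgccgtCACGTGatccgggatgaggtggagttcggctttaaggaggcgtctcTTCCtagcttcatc
NPY5R (chr4:163343642-163343891, plus strand): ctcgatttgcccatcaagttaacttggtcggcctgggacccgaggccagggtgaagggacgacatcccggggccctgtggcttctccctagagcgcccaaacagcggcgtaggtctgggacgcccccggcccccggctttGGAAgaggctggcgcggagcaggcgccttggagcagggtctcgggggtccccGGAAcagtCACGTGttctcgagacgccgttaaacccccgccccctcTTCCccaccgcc
NPY (chr7:24283940-24284187, plus strand): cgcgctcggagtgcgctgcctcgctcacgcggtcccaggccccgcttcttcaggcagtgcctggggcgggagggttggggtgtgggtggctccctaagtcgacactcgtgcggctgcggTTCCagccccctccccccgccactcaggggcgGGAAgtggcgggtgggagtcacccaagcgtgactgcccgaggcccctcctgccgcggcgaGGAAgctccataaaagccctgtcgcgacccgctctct

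The stretch of NPY1R holds GGAA 4 times and CACGTG once, that of NPY5R holds GGAA 3 times and CACGTG once, and that of NPY holds GGAA 3 times and no CACGTG. The E-box was chosen for the search after these letters were seen. It is found in 6.31% of 34788 RefSeq windows of 250 bases before a start, and GGAA in 92.8% of them, with a median of 3 matches. The stretches shown for NPY1R and NPY are shorter than those windows. RefSeq gives NPY5R another start, whose window holds GGAA once and neither CCGGAA nor the E-box, and the window of DPP4, not shown, holds the E-box once. The windows of CCK, which also fell in both ETS1 groups, and of CHGA, not shown either, hold no E-box. The longer ETS core CCGGAA, found in 14.5% of windows on either strand and overlapping GGAA, is present in the stretch of NPY5R and absent from those of NPY1R and NPY. The cyclic AMP response element TGACGTCA, found in 1.64% of windows, is in none of the stretches shown. The window of CHGA, not shown, holds TGACGTCA once and CCGGAA once. Such matches describe letters and do not show binding.

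The other NPY receptors and ligands were hardly detected. Of 6 symbols in the list (PYY, PPY, NPY2R, NPY4R, NPY4R2 and NPY6R), 5 were in the files and 0 held enough counts to be tested. PPY had 0 counts in all 9 libraries, and NPY2R had 1 count in a single RFP library. NPY4R, a receptor for pancreatic polypeptide, had at most 1 count per library in RFP and ETS1-Low and 5, 11.2 and 7.33 expected counts in ETS1-High. The non-whole values mean that reads were divided between NPY4R and other genes, which were not traced, so its level is uncertain.

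DPP4 transcripts were nearly lost in both ETS1 groups. DPP4 (ENSG00000197635.9; chromosome 2, 161992245 to 162074394, minus strand) had 42, 41 and 36 counts in RFP, 0, 0 and 3 in ETS1-Low and 2, 1 and 0 in ETS1-High. Each ETS1 group held 3 counts in all, against 119 in RFP. The falls passed in ETS1-High (adjusted p 3.34e-11) and ETS1-Low (adjusted p 5.12e-11), and the ratios of RFP to the ETS1 groups were 35.6 (95% counting interval 11.9 to 175) and 34.1 (11.4 to 168). Between the ETS1 groups no difference was detectable at this depth (log2 fold change -0.05, SE 1.12; adjusted p 0.976). The 67 tested neighbours of DPP4 had median log2 fold changes above 0 against RFP (0.73 for ETS1-High, 0.50 for ETS1-Low), opposite to DPP4 itself. An annotated transcript on the other strand, DPP4-DT, overlaps DPP4, and reads from it cannot be told apart with certainty.

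Of 14 other peptidases listed, 10 were tested. In ETS1-High against RFP 7 rose, 2 fell and 1 did not pass, and in ETS1-Low against RFP 5 rose, 3 fell and 2 did not pass. The shares called over all tested genes were 74.2% and 74.1%. The medians of 0.11 and 0.07 were near those of all tested genes. Of the rises in ETS1-High, those of ECE1 and LNPEP (log2 fold changes 0.10 and 0.09) turned negative on the FPKM scale, as did those of DPP8, ECE1 and PREP in ETS1-Low. MME, which encodes the enkephalin-degrading enzyme neprilysin, fell from 2.95 ± 0.30 CPM in RFP to 1.01 ± 0.09 in ETS1-Low (adjusted p 7.06e-14) and rose to 8.00 ± 0.32 in ETS1-High (adjusted p 1.06e-17). The difference between the ETS1 groups was 2.98 on the log2 scale (adjusted p 3.12e-26). DPP7, a lysosomal relative of DPP4, went from 128 ± 0.33 CPM in RFP to 160.0 ± 7.96 in ETS1-High (log2 fold change 0.32; adjusted p 8.21e-13) and 122 ± 2.21 in ETS1-Low (-0.07; adjusted p 0.0366). Per length DPP7 was at 188 ± 2.72 FPKM in RFP, 192 ± 7.46 in ETS1-High and 147 ± 5.01 in ETS1-Low. On that scale its rise in ETS1-High was within the SD, and its fall in ETS1-Low was larger. In the edgeR test DPP8 and NLN fell in ETS1-High by 0.17 and 0.62 on the log2 scale. FAP, the closest relative of DPP4 and its neighbour on chromosome 2, was singled out after its values were seen: it had 0 counts in RFP, 1 in ETS1-Low and 4, 14 and 11 in ETS1-High, at least 10.8-fold above RFP with a floor of 3 counts over the group, and was too low to be tested.

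Among the granins, SCG2 rose strongly and CHGA and CHGB were almost silent. SCG2 (ENSG00000171951.4; chromosome 2, 223596940 to 223602361, minus strand) encodes secretogranin II, the precursor of the peptide secretoneurin. It was at 30.6, 33.2 and 31.9 CPM in RFP, at 59.1, 61.0 and 59.3 CPM in ETS1-Low and at 126, 126 and 135 CPM in ETS1-High. The groups followed the order of the ETS1 level with wide gaps and little spread. SCG2 rose by 0.91 in ETS1-Low (SE 0.04; adjusted p 6.22e-27) and by 2.02 in ETS1-High (SE 0.04; adjusted p 3.61e-43) on the log2 scale against RFP, and by 1.11 between the ETS1 groups (SE 0.03; adjusted p 3.67e-32). Per length it went from 14.1 to 24.1 and 53.2 FPKM, from above 64.1% of tested genes in RFP to above 89.4% in ETS1-High. The 124 tested neighbours of SCG2 had median log2 fold changes of 0.52 for ETS1-High and 0.25 for ETS1-Low against RFP, smaller than those of SCG2, and their part in its rise was not tested.

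CHGA (ENSG00000100604.12; chromosome 14, 92923150 to 92935285, plus strand), chromogranin A, had 0, 2 and 1 counts in RFP, 0, 0 and 2 in ETS1-Low and 0 in each ETS1-High library. CHGB (ENSG00000089199.9; chromosome 20, 5911510 to 5925353, plus strand), chromogranin B, had 6, 7 and 12 counts in RFP, 4, 9 and 2 in ETS1-Low and 2, 0 and 5 in ETS1-High. Both are standard markers of neuroendocrine tumours, and here both were near the detection limit. The groups overlapped except for CHGB between RFP and ETS1-High. With no filter on low counts CHGB was lower in ETS1-High than in RFP at an adjusted p of 0.0442. Of 4 other granins 2 were tested. VGF fell from 1.14 ± 0.24 CPM in RFP to 0.50 ± 0.07 in ETS1-Low and 0.27 ± 0.07 in ETS1-High (adjusted p 9.1e-05 and 1.67e-08). SCG5, which encodes a chaperone of prohormone convertase 2, had 0.29 ± 0.07, 0.53 ± 0.11 and 0.18 ± 0.02 CPM and was called higher in ETS1-Low (adjusted p 0.0226) but not in ETS1-High (adjusted p 0.118) against RFP. The call in ETS1-Low was lost with DESeq2, with unfiltered FPKM, and without RFP replicate 2 or ETS1-Low replicate 2. Neither VGF nor SCG5 was called higher in ETS1-High, where SCG2 was.

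**Figure D2:**
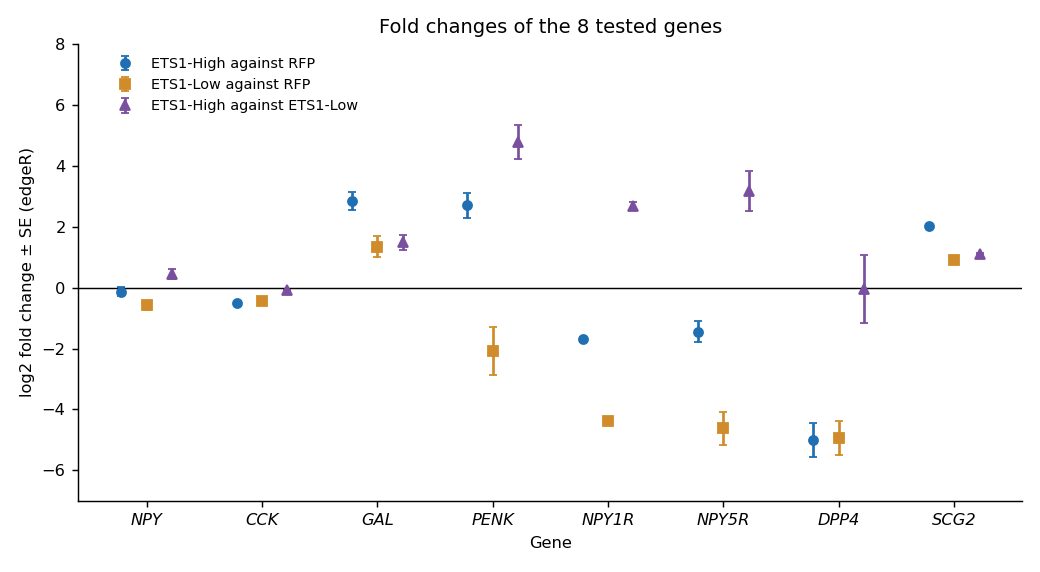
Log2 fold change (vertical axis, edgeR) of the 8 tested genes in the 3 comparisons; points are fitted values and bars their SE. Values for DPP4, and those of NPY5R and PENK against or between groups with 3 counts in all, depend on the fit's prior count. SCG2 and GAL lie above 0 in every comparison, NPY1R and NPY5R below 0 against RFP and above 0 between the ETS1 groups.

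Receptors for the other member peptides were measured next. Of 8 listed, 3 were tested. OPRD1, the delta opioid receptor on which enkephalins act, rose from 4.22 ± 0.02 CPM in RFP to 6.86 ± 0.79 in ETS1-Low and 9.31 ± 0.38 in ETS1-High (log2 fold changes 0.70 and 1.14; adjusted p 1.78e-09 and 1.45e-16). CCKBR and CCKAR, the cholecystokinin receptors, fell in both comparisons with RFP, where their levels were already low: CCKBR went from 2.31 ± 0.30 CPM in RFP to 0.11 ± 0.03 in ETS1-Low and 0.04 ± 0.04 in ETS1-High (adjusted p 8.94e-18 and 1.84e-19). None of the galanin receptors GALR1, GALR2 and GALR3 held enough counts to be tested, and OPRM1 had 0 counts in every library.

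The enzymes that cut and finish peptides changed in both directions. Of 10 prohormone processing genes 9 were tested, and all 9 were called in both comparisons with RFP, 5 higher (CPE, PAM, PCSK2, PCSK6, FURIN) and 4 lower (PCSK1, PCSK5, CPD, CTSL) each time. Of all tested genes, 74.2% were called in ETS1-High against RFP (37.0% higher, 37.2% lower). In ETS1-Low against RFP 74.1% were called (37.9% higher, 36.2% lower). The medians were 0.84 and 0.71, against -0.01 and 0.01 over all tested genes. PCSK1 and PCSK2 encode the prohormone convertases of the granule. PCSK1 had 30, 41 and 40 counts in RFP, 1 in each ETS1-Low library and 0, 1 and 4 in ETS1-High, a fall in both (adjusted p 5.34e-11 and 1.63e-10). PCSK2 rose from 41.7 ± 2.71 CPM to 68.0 ± 2.33 in ETS1-Low and 74.7 ± 1.24 in ETS1-High (log2 fold changes 0.71 and 0.84; adjusted p 7.24e-22 and 4.28e-25). The pair therefore changed in opposite directions.

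CPE, the carboxypeptidase that trims basic residues after the cut, rose from 8.19 ± 0.55 CPM in RFP to 52.5 ± 1.51 in ETS1-Low and 27.1 ± 0.58 in ETS1-High (log2 fold changes 2.68 and 1.73; adjusted p 3.46e-42 and 1.05e-32). Between the ETS1 groups the log2 difference was -0.95, with ETS1-High below (adjusted p 5.04e-25). PAM, the enzyme that amidates peptides such as neuropeptide Y and cholecystokinin, rose from 81.5 ± 1.82 CPM to 161 ± 2.43 and 152 ± 1.88. PCSK5, a convertase of wide tissue range, fell from 8.10 ± 0.40 CPM in RFP to 0.05 in ETS1-Low and 0.08 ± 0.03 in ETS1-High (adjusted p 2.1e-32 and 2.79e-32). CTSL, a lysosomal protease also found in granules, fell from 86.0 ± 1.47 CPM to 36.0 ± 2.13 and 53.7 ± 0.33. PCSK6 counts were not whole in all but 1 library, which means that reads were divided between genes, so its rise from 0.71 ± 0.14 CPM to 14.3 ± 0.24 and 4.84 ± 0.20 is of uncertain size.

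**Figure D3:**
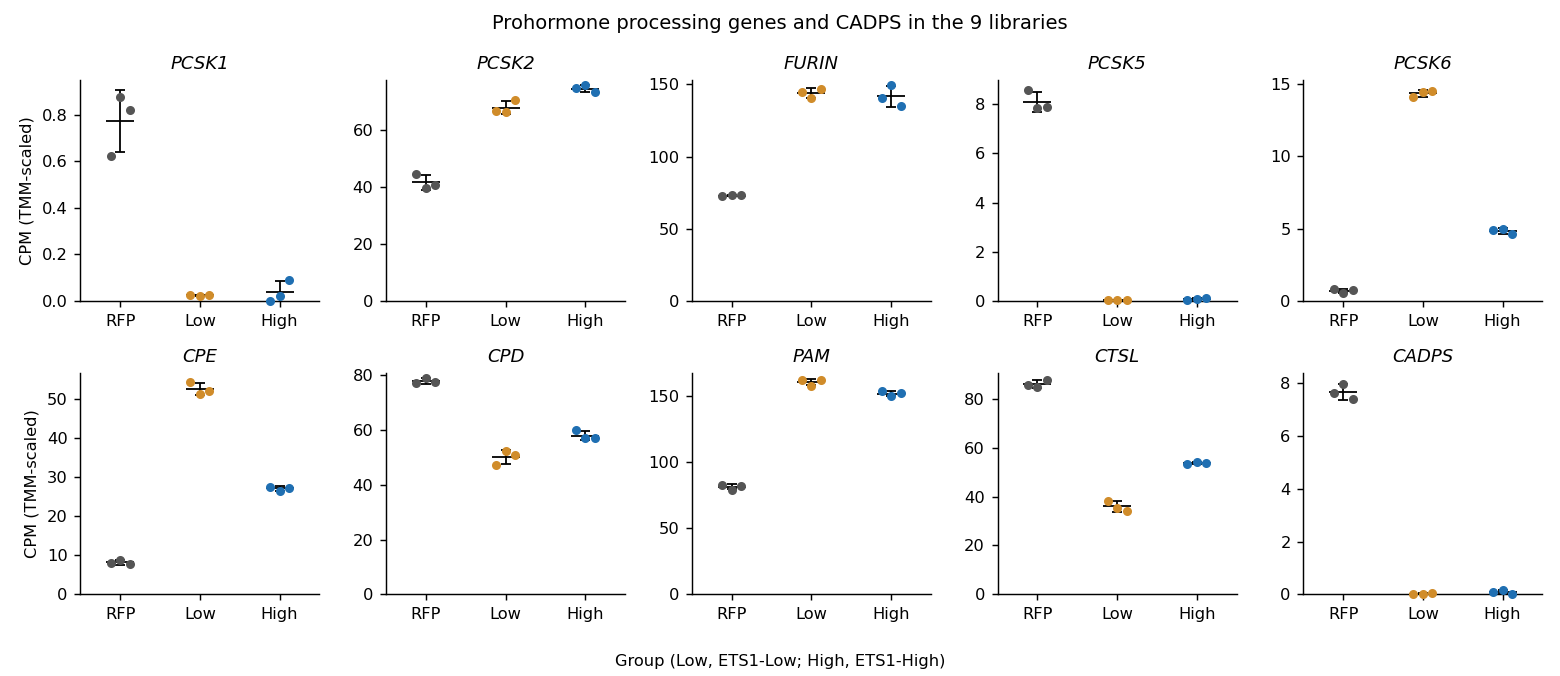
Levels of the 9 tested prohormone processing genes and of the vesicle release factor CADPS (vertical axis, CPM after TMM scaling, linear, own scale per panel) in RFP, ETS1-Low (Low) and ETS1-High (High); points are libraries, lines means and bars SD. PCSK1, PCSK5 and CADPS drop to near 0 in both ETS1 groups, while PCSK2, FURIN and PAM rise to similar levels in both and CPE and PCSK6 peak in ETS1-Low.

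Of 32 other peptide precursors 12 were tested and 20 were too low. In ETS1-High against RFP 2 rose, 7 fell and 3 did not pass, with a median of -0.86, and in ETS1-Low 4 rose, 5 fell and 3 did not pass, with a median of -0.43. The shares called over all tested genes were 74.2% and 74.1%. PNOC, the nociceptin precursor, was at 65.8 ± 2.68 CPM in RFP and fell to 3.03 ± 0.50 in ETS1-Low and 3.42 ± 0.61 in ETS1-High (log2 fold changes -4.43 and -4.27; adjusted p 2.66e-23 and 3.1e-23). NMU, the neuromedin U precursor, fell from 4.89 ± 0.51 CPM to 0.04 ± 0.04 and 0.32 ± 0.08 (adjusted p 2.26e-26 and 2.82e-23). GRP, the gastrin-releasing peptide precursor, rose from 70.9 ± 1.83 CPM to 130 ± 2.61 and 99.7 ± 3.43 (log2 fold changes 0.88 and 0.49; adjusted p 2.82e-29 and 8.53e-19). NPW, the neuropeptide W precursor, rose from 9.84 ± 0.63 CPM to 29.5 ± 0.34 and 21.0 ± 1.42 (log2 fold changes 1.58 and 1.09; adjusted p 1.24e-29 and 2.32e-22). GRP and NPW were both lower in ETS1-High than in ETS1-Low (adjusted p 3.78e-15 and 1.87e-11), unlike GAL, PENK and SCG2.

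Genes of dense-core vesicles showed no common direction. Of 20 listed 14 were tested: 4 rose, 5 fell and 5 did not pass in ETS1-High against RFP, and 3 rose, 6 fell and 5 did not pass in ETS1-Low, with medians of 0.09 and 0.05. The shares called over all tested genes were 74.2% and 74.1%. CADPS, which primes the vesicles for release, fell from 7.67 ± 0.29 CPM in RFP to 3 counts in all in ETS1-Low, a ratio of 316 (95% counting interval 108 to 1535), and to 0.10 ± 0.08 CPM in ETS1-High (adjusted p 8.94e-30 and 3.39e-29). Its relative CADPS2 fell from 99.8 ± 2.41 CPM to 66.6 ± 0.98 and 60.6 ± 1.20. RAB27A, a vesicle trafficking GTPase, rose from 4.71 ± 0.42 CPM to 9.75 ± 0.56 and 11.1 ± 0.19, although part of its reads was divided with other genes, and VPS51 rose from 55.6 ± 1.35 to 83.8 ± 2.33 and 77.6 ± 1.04. Of the core fusion proteins, STX1A and VAMP2 did not pass against RFP in either comparison. SNAP25 fell in ETS1-Low (log2 fold change -0.35; adjusted p 0.000151) and did not pass in ETS1-High (adjusted p 0.223). The small rise of RAB2A in both comparisons turned negative on the FPKM scale.

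Of 16 transcription factors and corepressors tied to neuroendocrine genes 11 could be tested. Against RFP, 7 rose, 3 fell and 1 did not pass in ETS1-High, and in ETS1-Low 8 rose and 3 fell, with medians of 0.30 and 0.55. HAND2, GATA3 and ISL1 also stand in the sympathetic neuroblast markers, and the small rise of RCOR1 in ETS1-Low turned negative on the FPKM scale. HAND2, a factor of sympathetic neurons, rose from 41.0 ± 1.17 CPM to 110 ± 3.07 in ETS1-Low and 211 ± 2.03 in ETS1-High, and GATA2 from 10.2 ± 0.54 to 21.2 ± 1.04 and 68.2 ± 1.12 CPM (adjusted p 1.68e-37, 9.12e-48, 8e-24 and 4e-44). RCOR2, a corepressor partner of REST, fell from 9.23 ± 0.62 CPM to 3.93 ± 0.41 and 4.04 ± 0.53. REST, the repressor of neuronal genes, was chosen after its values were seen. It was at 41.6 ± 1.65 CPM in RFP, 37.8 ± 1.29 in ETS1-Low and 51.2 ± 0.99 in ETS1-High, called lower in ETS1-Low (log2 fold change -0.14; adjusted p 0.00176) and higher in ETS1-High (0.30; adjusted p 1.19e-09). Over the 61 tested genes of these lists together, 82.0%, 83.6% and 62.3% were called in the 3 comparisons, beside 74.2%, 74.1% and 59.2% of all tested genes.

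**Figure D4:**
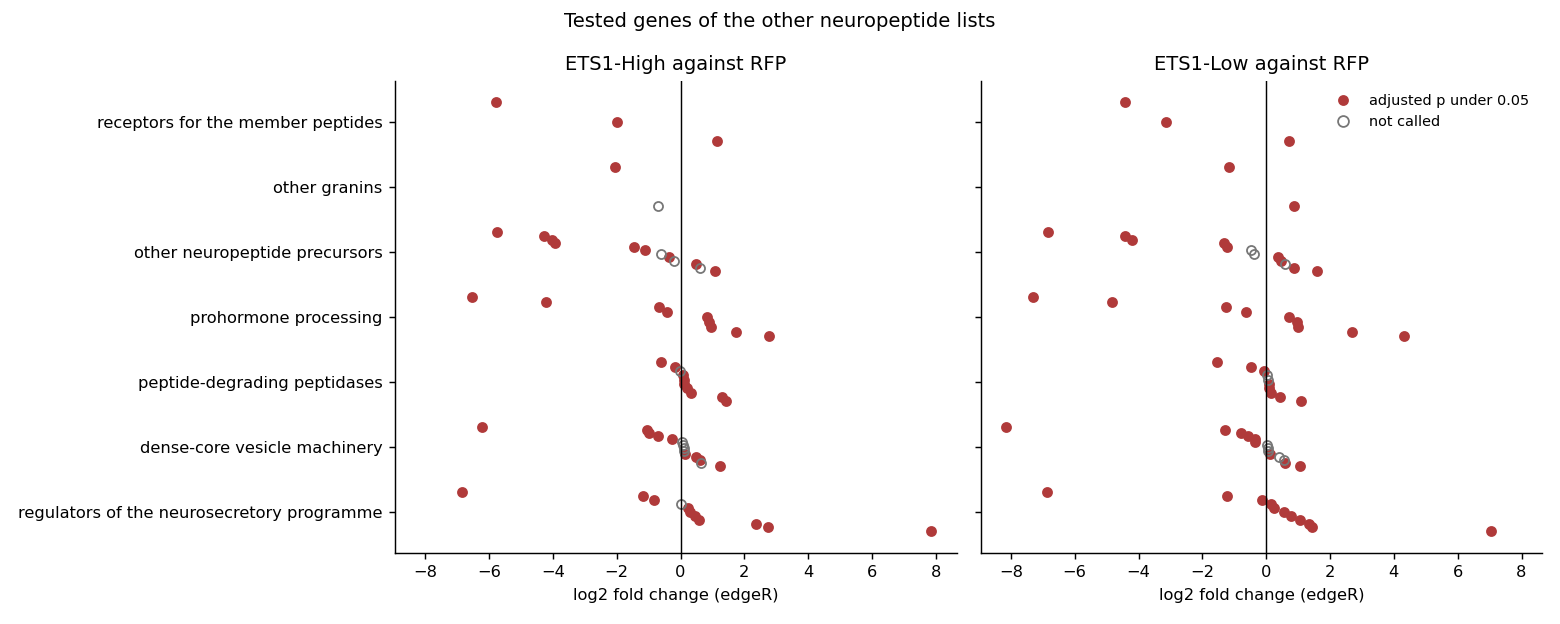
Log2 fold change (horizontal axis, edgeR) of each tested gene of the 7 other lists with tested genes, in ETS1-High against RFP (left) and ETS1-Low against RFP (right); filled points are called at an adjusted p under 0.05 and open points are not. In ETS1-Low every one of these lists holds genes on both sides of 0. All 9 tested prohormone processing genes are called in both panels, where 74.2% (left) and 74.1% (right) of all tested genes are called.

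By likeness of pattern, measured as Pearson's r of log2 CPM over the 9 libraries among genes averaging 100 counts or more, the 3 genes nearest to NPY were ZNF443 (r 0.97), TRIM46 (0.97) and ZNRF1 (0.96), each lowest in ETS1-Low. ZNF443 was at 4.18 ± 0.10 CPM in RFP, 2.58 ± 0.48 in ETS1-Low and 3.96 ± 0.22 in ETS1-High. The 3 nearest to CCK were DDX28, SETD3 and SLC25A5 (r 0.99 for each), all highest in RFP. SLC25A5, a mitochondrial ADP/ATP carrier, was at 599 ± 8.95, 475 ± 7.67 and 467 ± 6.05 CPM. The 9 libraries fall into 3 groups, and the group means had different orders. Those of the genes near NPY ran from RFP through ETS1-High to ETS1-Low, and those near CCK from RFP through ETS1-Low to ETS1-High. Each gene was picked for its likeness to NPY or CCK, so its sharing of that order follows from the choice.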

How the data were processed

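Total RNA went into a stranded mRNA library kit, per the labels' protocols. The authors deposited expected counts per gene, in which RSEM divides reads shared between genes, and FPKM values, which are corrected for gene length and depth; both tables are labelled as RSEM output. The submitters' processing notes list cutadapt 4.4, STAR 2.7.3, featureCounts (Subread 2.0.3) and limma 3.38.3 with build GRCh38, without their roles, and the annotation release is not given in the sources used here. In each library between 9.00% and 10.3% of the 58381 genes had an expected count that was not whole, and counts were rounded for testing. That share includes the 26816 genes at 0 in all libraries, so it is higher among detected genes.

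The edgeR quasi-likelihood test (edgeR 4.0.16, R 4.3.3; robust) was fitted to all 9 libraries by group, with TMM scaling and filterByExpr, which left 17235 genes. The SE is the log2 fold change divided by the square root of F. The test was checked on simulated counts. Replicate pairs differed by more than sampling noise (mean chi-square per gene 2.66 to 5.19 over genes reaching 50 counts in a pair), so each library counts once.

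Positions come from GENCODE v44 on GRCh38, and neighbours are tested genes whose midpoints lie within 10 Mb. Where a group held 1 to 3 counts, the ratio of summed counts carries an exact 95% interval.

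The 10 genes and the lists were chosen with earlier results of these data known. The named list genes are up to 2 called genes per direction of lowest p for ETS1-High against RFP whose mean count reached 50; others named were chosen after their values were seen. Alternatives were other scaling factors, DESeq2 1.42.0, other filters, a replicate block, the groups compared only, leaving out each library, limma 3.58.1 on log2 FPKM with a pseudocount of 1 or 0.1, and a 2-fold minimum.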

Additional observations from a re-analysis of the deposited data

Results flagged for a closer look

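Both ETS1 groups were set against the same RFP libraries, and the edgeR test of the difference itself separated ETS1-High from ETS1-Low for 6 of the 8 tested genes. All 6 were higher in ETS1-High. The log2 differences were 4.77 for PENK (adjusted p 1.83e-10), 3.17 for NPY5R (5.01e-05) and 2.68 for NPY1R (5.36e-24), and those of PENK and NPY5R depend on the fit's prior count. They were 1.49 for GAL (9.71e-07), 1.11 for SCG2 (3.67e-32) and 0.44 for NPY (0.0149). PENK was called higher than RFP in ETS1-High and lower in ETS1-Low.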

How the results depend on the processing

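The members called kept their number within 1.5 times in 52 of 60 alternative counts. With at least 10 counts in every library, 4 members remained to be tested, and 3, 4 and 3 were called in ETS1-High against RFP, ETS1-Low against RFP and ETS1-High against ETS1-Low. FPKM with a pseudocount of 1 or 0.1 and a mean of at least 1 left 5 members, of which 4 and 5 were called against RFP. In ETS1-Low against RFP 5 calls reached 2-fold. Leaving out each library in turn gave 7, 7 to 8 and 5 to 7 calls. Of 423 alternative log2 fold changes of members, 412 kept direction and side of the threshold. The direction turned only for DPP4 between the ETS1 groups, which rests on 3 counts a group: to 3.22 without ETS1-Low replicate 3 and to 0.51 without ETS1-High replicate 3, within a leave-one-out range from -0.95 to 3.22, and no value passed. The calls of NPY between the ETS1 groups and of PENK in ETS1-Low against RFP were lost in 2 alternatives each. CCK between the ETS1 groups passed in 5 alternatives. Of 480 alternative counts for the other lists, 67 moved by over 1.5 times. FPKM values with no filter moved the share of higher calls over all genes against RFP from 49.8% to 38.4% for ETS1-High and from 51.2% to 36.8% for ETS1-Low.

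Same-numbered libraries did not deviate together (r from -0.13 to 0.14; 7 of 18 library and group combinations had the best r with their own number), so no pairing by number was detected. With 3 libraries in a group, a shared preparation of same-numbered libraries could still go unseen. With the replicate block, 7, 8 and 6 members were called, as without it. Depth limits CHGA, CHGB, DPP4, NPY5R and PENK, where a group held few counts.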

Other observations

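Among the neuroendocrine markers, NCAM1, a neural adhesion molecule, fell from 59.2 FPKM in RFP to 11.0 in ETS1-Low and 0.78 in ETS1-High, with log2 fold changes of -2.26 and -6.33 against RFP (edgeR adjusted p 6.73e-46 and 1.5e-57). UCHL1, a neuronal ubiquitin hydrolase, fell from 574 to 382 and 322 FPKM (log2 fold changes -0.43 and -0.70; adjusted p 2.01e-18 and 4.98e-27). ENO2, the neuronal enolase, fell in ETS1-High by 0.50 on the log2 scale (adjusted p 2.91e-21) and did not pass in ETS1-Low (0.01; adjusted p 0.759). These genes and SCG2 went in opposite directions in ETS1-High.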
